A study of Mus musculus with 2 samples.

Results

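Ube3a, Snrpn, Snurf, Snhg14, Ndn, Magel2 and Mkrn3, 7 genes of the imprinted Prader-Willi and Angelman region, were followed in mouse cortex by symbol, out of 55536 annotated genes. All 7 lay on chromosome 7 of mm10, and each symbol matched 1 gene of GENCODE M21. The material was left cerebral cortex, taken at 25 days of age from male mice of B6CASTF1/J, the F1 hybrid between C57BL/6J and CAST/EiJ, and measured by total RNA-seq. The series held 1 group of 2 samples, biological replicates 1 and 2, with 300 ng of RNA each, no treatment and no engineered allele named in the labels. Both samples carried the same donor entry but different biobank numbers, so that they come from separate animals is an assumption on which each SD (n = 2) rests. Every value is a total over both parental alleles, so which allele was expressed was not tested, nor was the effect of reading RNA of the CAST/EiJ allele against a C57BL/6J reference.

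In this region a control element near the Snrpn start is methylated on the maternal chromosome, and the protein genes Snrpn, Snurf, Ndn, Magel2 and Mkrn3 and the long noncoding host gene Snhg14 are expressed from the paternal one. Snhg14 carries small nucleolar RNAs in its introns and runs on across the end of Ube3a on the opposite strand. In neurons the paternal Ube3a allele is silenced together with this antisense transcription, while other cell types express both alleles. Loss of the paternal genes is known for Prader-Willi syndrome, and loss of maternal UBE3A for Angelman syndrome.

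The Snurf reading frame is shown first because it lies within transcripts of the neighbouring gene, which bears on every value given for Snurf. Snurf-201 is a model of 216 bases (chr7:59995449-60005049, minus strand) made of coding sequence alone. Capitals mark its 14 first-exon bases, which Snrpn-201 and Gm38393-201 also hold and Snrpn-202 does not.
Snurf-201: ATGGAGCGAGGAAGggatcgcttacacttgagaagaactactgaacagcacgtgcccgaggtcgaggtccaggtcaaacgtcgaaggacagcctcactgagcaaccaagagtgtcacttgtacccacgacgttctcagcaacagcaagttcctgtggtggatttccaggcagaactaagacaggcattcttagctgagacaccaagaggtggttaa
All 216 bases were contained in Snrpn-201, and 202 in Snrpn-202. No base of the Snurf model was its own.

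Of 17 annotated Snord116 copies, 14 had 1 sequence of 94 bases, and the 17 made 4 different sequences. The common copy is given at Snord116l1 (chr7:59894620-59894713, minus strand), with the C box and the D box of this snoRNA class in capitals.
Snord116l1: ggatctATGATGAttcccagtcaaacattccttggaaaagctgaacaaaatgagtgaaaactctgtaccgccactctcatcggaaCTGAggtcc
Snhg14 has exonic sequence that repeats as well, also in models that do not reach the Snord116 copies. The following 51 bases occurred in 7 of its 15 models, in Snhg14-203 and Snhg14-207 with 3 copies each and in Snhg14-205 with 2.
Snhg14 shared run: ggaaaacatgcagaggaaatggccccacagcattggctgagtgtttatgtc

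Next, 3 promoter windows are shown because a motif recurred in those of Snrpn, Snurf, Snhg14 and Ndn. Windows of 300 bases, 250 before a RefSeq start and 50 after it (GRCm38.p6), were found for 7 of 7 genes. The genes had 8 different windows, 4 of them for Snrpn, since Snurf shared 1 window with Snrpn and Snhg14 shared another. Capitals mark the 8-base palindrome CGCATGCG, which reads the same on both strands and matches the core that the factor NRF1 binds.
Snrpn upstream start, chr7:60140176-60140475, minus strand: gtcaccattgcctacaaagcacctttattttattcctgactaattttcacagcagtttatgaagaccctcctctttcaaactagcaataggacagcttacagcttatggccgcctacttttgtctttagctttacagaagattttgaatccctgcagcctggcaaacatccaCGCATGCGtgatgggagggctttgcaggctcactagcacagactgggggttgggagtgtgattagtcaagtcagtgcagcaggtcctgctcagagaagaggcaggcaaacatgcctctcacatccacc
Snrpn and Snurf start, chr7:60005150-60005449, minus strand: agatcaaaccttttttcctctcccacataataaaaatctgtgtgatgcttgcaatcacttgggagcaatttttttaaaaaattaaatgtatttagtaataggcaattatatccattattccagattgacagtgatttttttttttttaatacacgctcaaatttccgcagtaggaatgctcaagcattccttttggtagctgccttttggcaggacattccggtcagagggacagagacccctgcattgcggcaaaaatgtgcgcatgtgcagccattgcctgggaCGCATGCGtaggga
Ndn start, chr7:62348027-62348326, plus strand: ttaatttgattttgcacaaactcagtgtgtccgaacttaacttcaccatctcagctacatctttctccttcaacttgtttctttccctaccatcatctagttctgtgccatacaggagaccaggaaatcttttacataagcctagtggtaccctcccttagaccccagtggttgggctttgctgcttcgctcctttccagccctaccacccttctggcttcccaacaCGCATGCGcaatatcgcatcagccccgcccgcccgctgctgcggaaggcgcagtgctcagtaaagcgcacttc
The palindrome was in 5 of the 8 windows, namely all 4 windows of Snrpn and that of Ndn, and in 1.86% of 32817 windows of all genes. No other motif was searched, and this one is shown because it recurred here. The share over all genes is thus given for scale and is no test of enrichment. It began 63, 78 and 71 bases before the 3 upstream Snrpn starts, 36 bases after the Snrpn and Snurf start and 23 bases before the Ndn start. The 3 upstream Snrpn windows were copies of each other, with 83% to 84.7% of bases identical, so they do not count as separate occurrences. They matched the Snrpn and Snurf window at 49.7% to 56%. No match was found in the windows of Ube3a, Magel2 and Mkrn3. The Ube3a window held 29 CpG dinucleotides, Mkrn3 15, Ndn 11, Magel2 10 and the Snrpn windows 2, 3, 4 and 7, beside a median of 7 over all windows. No binding or methylation was measured, so a match is a description of these letters only.

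The region's genes differed widely in level, with a mean of Snhg14 1018-fold that of Magel2. The Snhg14 level is a sum over 15 models and that of Magel2 rests on 1 model, so this fold depends on the summing. Levels are TPM, a count of transcripts that takes transcript length into account and is scaled to a fixed sum, from the gene table unless the second transcript table is named. That second table was made with another quantification, and its TPM was 1.58 times that of the gene table for the median gene (quartiles 1.47 and 1.76, 12345 genes). Snurf stood highest, with 1042 TPM in replicate 1 and 1123 TPM in replicate 2, rank 39 of all genes, but its shared sequence leaves this value open to the split described below. The value also rests on an effective length of only 117 bases in both replicates. In expected counts Snurf, with 2453 and 2958, was below Snrpn, with 15336 and 16839. Snhg14, by the sum over its 15 models, followed with 775 and 681 TPM, at rank 77. Snrpn had 414 and 407 TPM, at rank 142, and its place below Snhg14 depends on that sum. Ube3a, with 57.7 and 61.3 TPM, and Ndn, with 49.9 and 53.1 TPM, formed a middle pair. Mkrn3, with 0.99 and 0.91 TPM, and Magel2, with 0.72 and 0.71 TPM, were at the low end.

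As means these were 1082 ± 57.4 TPM for Snurf, 728 ± 66.3 for Snhg14, 411 ± 5.28 for Snrpn, 59.5 ± 2.55 for Ube3a, 51.5 ± 2.29 for Ndn, 0.95 ± 0.057 for Mkrn3 and 0.715 ± 0.0071 for Magel2 (SD, n = 2). The 2 replicates of each gene lay apart from those of the next gene in the order, without overlap. For Mkrn3 and Magel2 this order is within counting error, since the 95% Poisson intervals were 0.73 to 1.31 and 0.68 to 1.20 TPM for Mkrn3 and 0.56 to 0.92 and 0.56 to 0.89 TPM for Magel2. These intervals cover counting error only, as the reads carry no molecular identifiers and are not independent molecules. At least 1 TPM in both replicates was reached by 5 of the 7 genes, against 26.5% of all annotated genes. By the second quantification 5 of 7 reached it too, with Mkrn3 in at 1.38 and 1.40 TPM and Snurf out at 0 and 0 TPM.

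**Figure D1:**
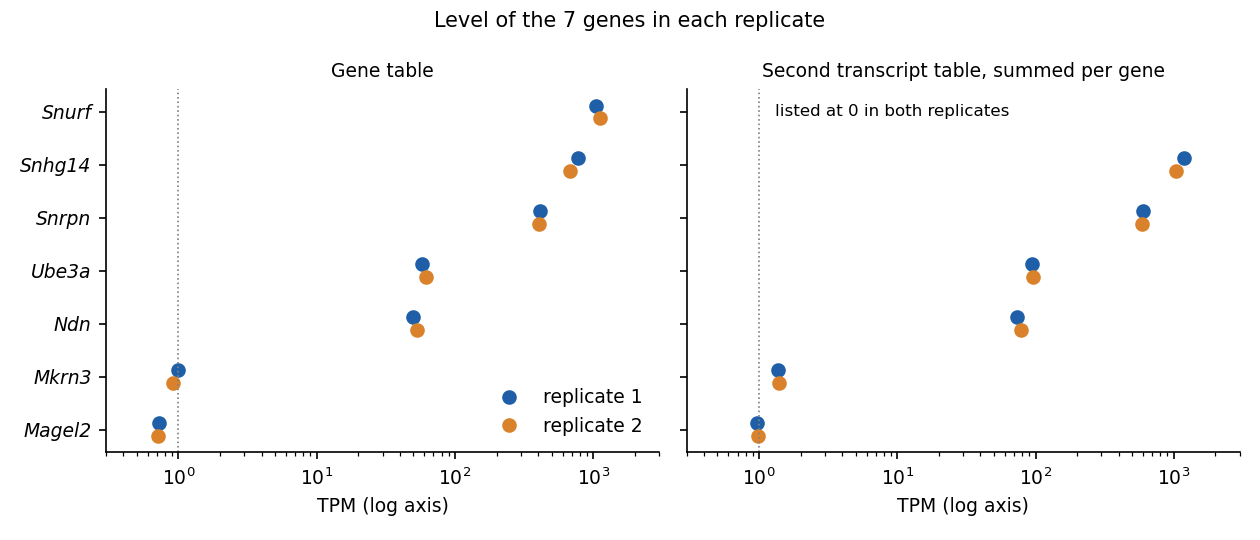
TPM of the 7 genes on a log axis in replicate 1 (blue) and replicate 2 (orange), left from the gene table and right from the second transcript table summed per gene. The dotted line marks 1 TPM. Each pair of points lies close together, and the 2 tables differ most for Snurf, which the second table lists at 0.

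Snrpn makes SmN, a brain-rich relative of the core spliceosome protein SmB, and was far above its paralog. Snrpn had 15336 expected counts in replicate 1 and 16839 in replicate 2. The ubiquitous paralog Snrpb stood at 45.1 and 47.6 TPM, so the log2 ratio of Snrpn to Snrpb was 3.19 in replicate 1 and 3.08 in replicate 2, with a mean of 3.13 ± 0.073 (SD, n = 2). This is an 8.86-fold higher level per length, and 7.77-fold in the second table. All 7 listed Sm core genes were detected. Snrpb was the highest of them at 46.3 ± 1.75 TPM, and Snrpf the lowest at 5.39 ± 0.73 TPM. The Sm genes summed to 187 and 198 TPM, which is below Snrpn alone in both replicates.

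How the reads of the Snrpn start were divided among overlapping genes differed between the tables. The gene table gave Snurf, which codes for a small basic nuclear protein from the upstream frame of the same bicistronic RNA, 2453 and 2958 expected counts. The second table gave Snurf 0 and 0 counts. It gave Snrpn 16005 and 17724 counts, against 17789 and 19797 for Snurf and Snrpn together in the gene table. Gm38393, an overlapping gene model of the same strand, had 35.3 and 29.2 TPM. With it added, the 3 genes held 19945 and 21767 counts in the gene table and 18569 and 20047 in the second. The ratio of the tables was thus 0.931 and 0.921 for the 3 genes together. Why the second table lists Snurf at 0 was not tested. The model is both short and without sequence of its own, so this 0 is not read as absence of its RNA.

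The same held for the 2 models of Snrpn, which differ at the start and share 1849 bases. Snrpn-201, of 1932 bases, begins at 60005111, near the canonical start, and has 83 bases of its own against Snrpn-202. Snrpn-202, of 2076 bases, reaches up to 60140219, at the upstream start whose window is printed above, and has 227 bases of its own. The first transcript table gave Snrpn-201 95.9% and 96.6% of the gene's TPM. The second gave Snrpn-202 99.9% and 100%. These opposite answers came from the same libraries, so the use of the canonical against the upstream start is not settled by them. The gene's total moved little in counts, by a ratio of 1.04 and 1.05, while its TPM was 596 and 593 in the second table.

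**Figure D2:**
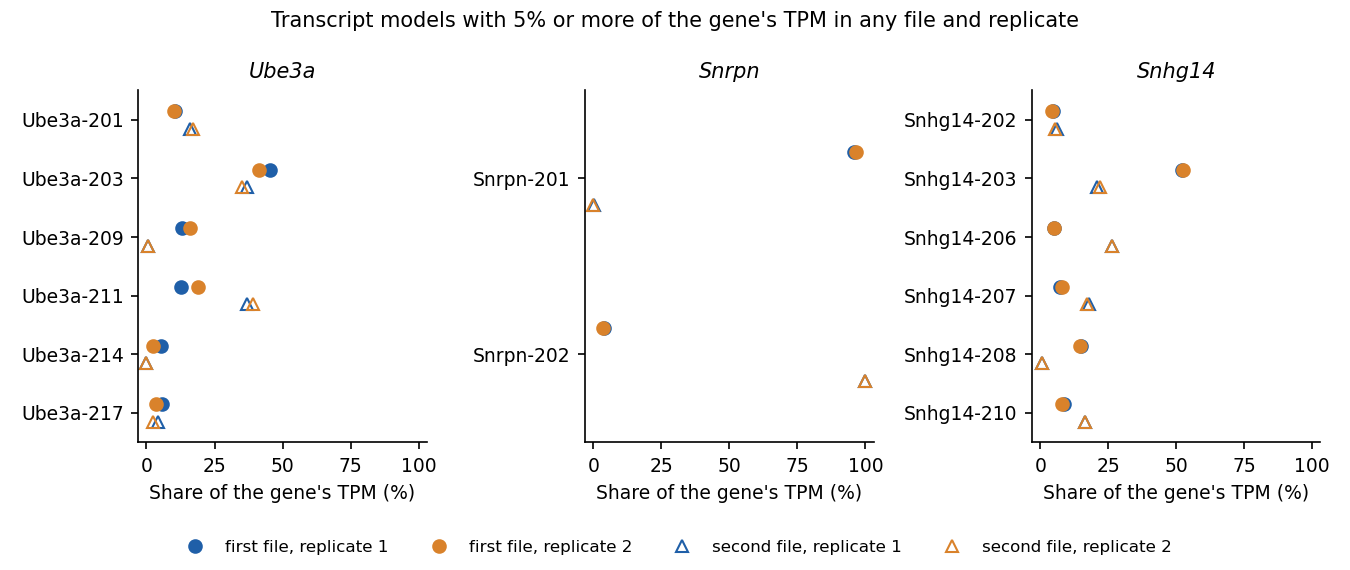
Share of each gene's TPM (%) held by the transcript models with at least 5% in any table and replicate, for Ube3a, Snrpn and Snhg14. Filled circles are the first transcript table, open triangles the second, blue replicate 1 and orange replicate 2. The replicates lie together, whereas the tables give the Snrpn models opposite shares and differ for some models of the other genes. Snhg14-208 had 15.1% and 14.5% in the first table and 0.77% and 0.70% in the second. Ube3a-209 had 13.1% and 16.2% in the first and 0.54% and 0.56% in the second.

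By gene TPM, a sum over 15 models placed along the gene, Snhg14 came next after Snurf in the region. Its GENCODE models span 667.8 kb on the minus strand (chr7:59307924-59975759), begin 29.35 kb beyond the Snrpn-201 start and overlap the end of Ube3a by 3613 bases. The RefSeq start of Snhg14 lies elsewhere, at 60450177, upstream of both Snrpn models and in a window shared with Snrpn. Snhg14 had 16080 and 15815 expected counts in the gene table and 24829 and 24327 in the second. Snrpn had 15336 and 16839 in the gene table, so there the order of these genes in counts differed between the replicates. The 15 models of Snhg14 were summed in 5 groups, joining models that share exonic bases or any run of 31 bases, since the tables split shared reads in different ways. In the first table Snhg14-203 led with 403 and 357 TPM and Snhg14-206 had 38.8 and 33.8 TPM. In the second these were 249 and 226 TPM for Snhg14-203 and 311 and 273 TPM for Snhg14-206.

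Summed by group, TPM put the groups in the same order in both tables. The 3 models nearest to Snrpn, 29.4 to 67.7 kb from its start, had 44.3 and 40.7 TPM. The 7 models with the repeated run, 100.4 to 386 kb from it, had 535 and 477 TPM, or 69.1% and 70.0% of the gene's TPM. Annotated snoRNA genes within that stretch numbered 69, of which 16 were named Snord116. The single model Snhg14-215 had 2.55 and 1.59 TPM on 10 and 7 counts. The pair Snhg14-208 and Snhg14-210, 552 to 621 kb away with 32 snoRNA genes inside its span, had 184 and 155 TPM. The pair at the Ube3a end, Snhg14-212 and Snhg14-213, 681 to 697 kb away, had 8.22 and 7.23 TPM.

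In summed TPM the repeated stretch stood 65.1-fold and 65.9-fold above the Ube3a end in the first table, and 63.8-fold and 62.7-fold in the second. These are sums over 7 models against 2. In counts per kb of exonic sequence the same stretch was 10.01-fold and 10.06-fold above the Ube3a end in the first table and 16.1-fold and 16.0-fold in the second. On that scale the pair Snhg14-208 and Snhg14-210 was the highest group of the first table, at 1496 and 1399 counts per kb against 867 and 861 in the repeated stretch. In the second table the same groups stood at 1649 and 1590 against 1697 and 1652 counts per kb, so their order depends on the scale and the table. Snhg14-208 and Snhg14-210 also repeat within themselves, with 57.5% and 67.8% of their 31-base runs distinct. How such repeats affect the counts per kb was not tested. The levels did not fall steadily with distance, as the nearest group was below both snoRNA-rich groups on either scale in both tables. The tables disagreed mainly in the repeated stretch, which held 7858 and 7800 counts in the first and 15376 and 14968 in the second. That stretch made up 85.9% and 84.2% of the gap in Snhg14 counts between the tables. At the Ube3a end the counts were 575 and 568 against 698 and 686.

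**Figure D3:**
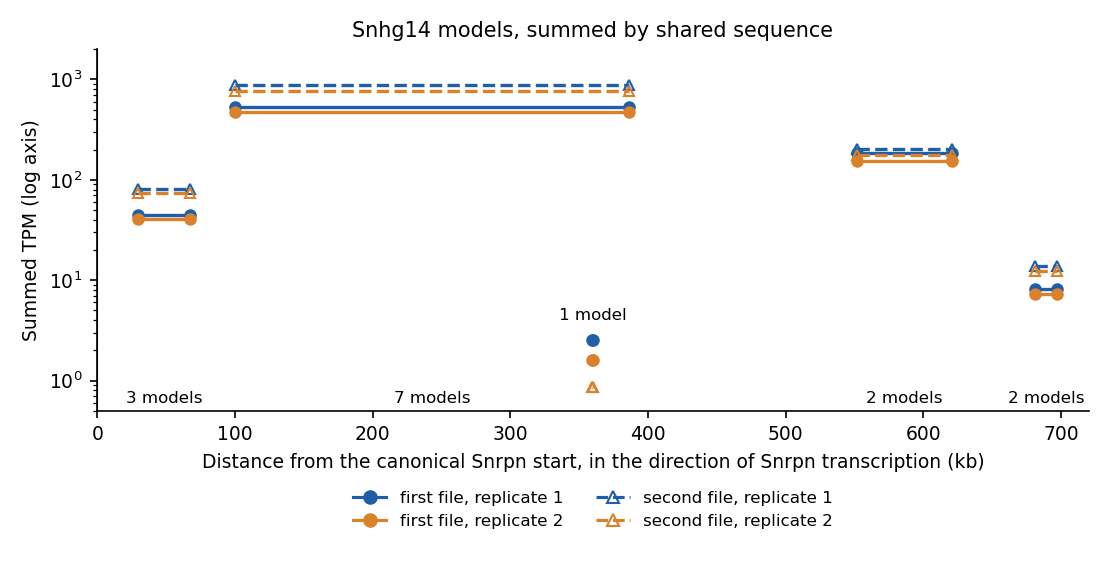
Summed TPM (log axis) of the Snhg14 models, joined by shared sequence, against their distance in kb from the start of Snrpn-201, the canonical start. Each line runs from the nearest to the farthest base of a group, with circles for the first and triangles for the second table. The stretch of 7 models stands at 535 and 477 TPM in the first table, and the 2 models at the Ube3a end at 8.22 and 7.23 TPM. The second table lists the single model in the middle at 0 in replicate 1.

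The snoRNAs themselves could not be read from these tables. All 19 listed (17 Snord116 copies, Snord64 and Snord107) are 67 to 94 bases long and had 0 counts in both tables and replicates. Their effective length in the gene table was 0, because that table shortens each length by 99 bases. The same was true of all 210 genes of this class between Ube3a and Peg12, 208 of them inside Snhg14. In the gene table their 0 is a property of the length rule and gives no level. Why the second table lists them at 0 was not tested, and that 0 is not read as absence either. Of these 210, 17 were named Snord116 and 0 Snord115 in this annotation.

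Ube3a makes a ubiquitin ligase, the enzyme whose maternal loss underlies Angelman syndrome. It had 6174 and 6739 expected counts. Set against the whole antisense host gene, the log2 ratio of Ube3a to Snhg14 was -3.74 in replicate 1 and -3.46 in replicate 2, with a mean of -3.60 ± 0.19 (SD, n = 2). That ratio uses a TPM summed over 15 Snhg14 models, and on counts without length correction it was -1.31. Most Snhg14 RNA in it was counted away from Ube3a. Snhg14-213 was the 1 model whose span overlaps Ube3a, and its 6.31 and 5.72 TPM were 10.9% and 9.33% of the Ube3a level. The second table gave 11.7% and 10.4%. A further 4 minus-strand models of unconfirmed status (biotype TEC) overlap the body of Ube3a. Gm44560 had 6.61 and 5.40 TPM, Gm44559 5.66 and 5.01, 9330162G02Rik 4.43 and 3.69 and Gm44562 3.42 and 3.42 TPM, between 5.75% and 10.1% of the Ube3a mean. These counts can include sense reads assigned to the wrong strand. Single-exon genes lying inside an exon of an opposite-strand gene with at least 1000 counts were compared with that gene in counts per base, in 57 pairs. Their median was 0% of the opposite gene and their 90th percentile 0.552%, while 2 of 57 reached 5% or more. If strand were ignored, reads there would fit both genes and could be given to either, so these values do not measure wrongly assigned reads. The models over Ube3a were not chosen by that rule, and 9330162G02Rik reaches past the Ube3a start. For the Ube3a models themselves the share of wrongly assigned reads was not tested.

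Ube3a was read mostly as protein-coding RNA. Of its 18 models, 11 are labelled protein coding, 8 of these incomplete. The coding models held 91.8% of the gene's TPM in replicate 1 and 94.2% in replicate 2, with a mean of 93.0% ± 1.64 (SD, n = 2). The second table gave 96.3% and 95.7%. The 3 complete coding models held 58.2% and 52.6% of TPM but 94.6% and 93.5% of expected counts. The 8 incomplete ones held 33.6% and 41.6% of TPM on 3.36% and 4.56% of the counts. Ube3a-203, the longest at 9856 bases, had 26.3 and 25.4 TPM on 5155 and 5569 counts. Ube3a-201, of 4911 bases, had 6.09 and 6.26 TPM on 590 and 678 counts. The short fragment Ube3a-211, of 579 bases, had 12.8% and 18.8% of TPM in the first table and 36.9% and 39.0% in the second, on 71.6 and 124.5 counts in the first. Retained-intron models had 7.92% and 4.57%, and 2.19% and 2.04% in the second table.

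The listed partners and paralogs of Ube3a were all detected, 4 of 4. Ube2l3, the conjugating enzyme that hands ubiquitin to Ube3a, stood at 63.6 ± 7.41 TPM, and Herc2, a giant ligase that binds Ube3a and lies farther along the same chromosome, at 63.0 ± 3.05 TPM. The log2 ratio of Ube3a to Ube2l3 was -0.017 and -0.17, and that to Herc2 -0.17 and 0.011. The Herc2 ratio took both signs, so in the gene table Ube3a and Herc2 were not apart beyond the spread of the replicates. In the second table that ratio was -0.080 and -0.066, with Ube3a slightly lower in both replicates. The paralogs Ube3b and Ube3c were lower, at 34.2 ± 2.13 and 32.5 ± 0.99 TPM.

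Ndn, Magel2 and Mkrn3 form a cluster of single-exon genes far from Snrpn, and their levels were unlike. Ndn, which makes the growth-restraining MAGE protein necdin of postmitotic neurons, had 3609 and 4300 expected counts. Magel2, a MAGE family gene that promotes recycling of membrane proteins from endosomes, had 66 and 72 counts over an effective length of 4532 bases. The log2 ratio of Magel2 to Ndn was -5.37 and -5.47. Of 6 other MAGE genes listed, 6 were detected. Maged1 was the highest at 194 ± 0.66 TPM and Magee2 the lowest at 2.81 ± 0.73 TPM. Ndn stood at a log2 ratio of -1.94 and -1.86 to Maged1.

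Partners of MAGEL2, known from human cells, were present beside the low Magel2 level, and all 6 listed were detected. Vps29, a retromer subunit, was the highest at 90.7 ± 0.085 TPM, Usp7, a deubiquitinating enzyme of the complex, stood at 67.3 ± 0.42 TPM, and the ligase gene Trim27 was the lowest at 16.1 ± 2.69 TPM. Mkrn3, a makorin ligase gene known for its part in the timing of puberty, had 49 and 50 counts. Both other makorins were detected, Mkrn1 at 65.9 ± 2.13 TPM and Mkrn2 at 15.2 ± 1.15 TPM. The log2 ratio of Mkrn3 to Mkrn1 was -5.45 and -5.59. Of 6 neuropeptide genes of the hypothalamus, a tissue for which Magel2 and Mkrn3 are known, 1 (Pomc, at 1.70 and 1.26 TPM) was detected in both replicates.

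Between the replicates the region's genes lay about as close together as genes in general. Past 1.5-fold on TPM + 0.5 were 0 of 7, beside 3.75% of 18136 genes (those whose expected counts average 10 or more). All 7 passed that count minimum. At so low a share, 0 of 7 does not set these genes apart from the others. With 1 group there is no test, and no p-value was computed. The median absolute log2 difference was 0.087 for the 7 genes and 0.11 for all genes tested. Replicate 1 was higher than replicate 2 in Snhg14, by 0.19 on the log2 TPM scale, in Mkrn3 by 0.080, in Snrpn by 0.026 and in Magel2 by 0.012. It was lower in Snurf (-0.11), Ndn (-0.090) and Ube3a (-0.087). On TMM-scaled counts the 95% counting interval of the log2 difference lay above 0 for Snhg14 (0.15, 0.12 to 0.18) and below 0 for Snurf (-0.15, -0.22 to -0.068) and Ndn (-0.13, -0.19 to -0.064). With ERCC scaling, which moved the median of all genes to -0.14, Snhg14 lay at about 0 (-8.4e-05) and Mkrn3 at -0.040, and the TPM difference of Snrpn changed sign on counts. For Snrpn the count value was -0.011 (-0.042 to 0.021) and for Ube3a -0.0022 (-0.052 to 0.048). For Magel2 (-0.51 to 0.50) and Mkrn3 (-0.50 to 0.69) it was wide, and smaller differences were not detectable at this depth.

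The Snhg14 difference ran along the gene. In the first table each of its 5 groups was higher in replicate 1 on counts, by 0.12, 0.13, 0.64, 0.22 and 0.14 on the log2 scale from the nearest to Snrpn to the Ube3a end. In the second table the single model had 0 counts in replicate 1 and 1 in replicate 2, and the other 4 groups were higher in replicate 1. In the first table the intervals of the single model and of the Ube3a end (-0.028 to 0.31) held 0. Gm38393 was also higher in replicate 1, by 0.25 (0.17 to 0.34), while the summed counts of Snrpn and Snurf were at -0.030 (-0.059 to -0.00091). For Ube3a the TPM and count differences were unequal because its estimated mean effective length was 5318 bases in replicate 1 and 4884 in replicate 2.

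**Figure D4:**
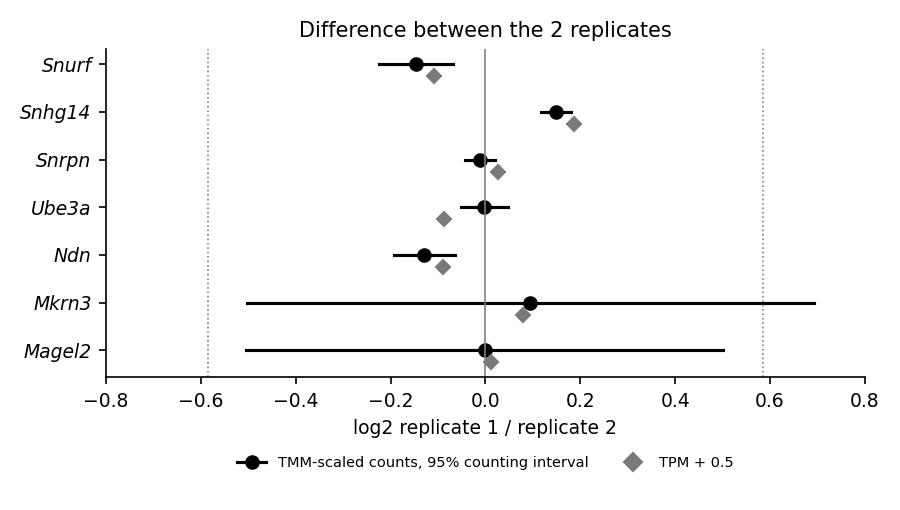
Log2 of replicate 1 over replicate 2 for the 7 genes. Black circles with lines are TMM-scaled counts with their 95% counting interval, grey diamonds TPM + 0.5, and dotted lines mark 1.5-fold. No point passes 1.5-fold, and Snhg14, at 0.15 on counts, is the one gene whose interval lies above 0.

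Some cell type marker RNAs differed between the samples beside these values. Neuron markers were detected in 4 of 4 and summed to 2130 and 2099 TPM, and astrocyte markers in 3 of 3, at 1297 and 1185 TPM. Microglia (2 of 2) summed to 48.6 and 49.5 TPM and endothelium (2 of 2) to 35.1 and 37.2 TPM. The 3 myelin markers, all detected, summed to 736 TPM in replicate 1 and 980 TPM in replicate 2. All 3 choroid plexus markers were over 1.5-fold lower in replicate 1, which had 19.5 TPM of Ttr, the thyroid hormone carrier gene, against 191.9 TPM in replicate 2, with a list sum of 20.4 and 195 TPM. Of these, 1 of 3 reached 1 TPM in both replicates, and none was at 0. The hypothalamic gene Avp stood at 0.45 and 5.90 TPM, and that list summed to 3.32 and 8.26 TPM, with Agrp and Hcrt at 0 in replicate 2. The part of these differences in the values of the 7 genes was not tested. In bulk tissue fewer cells of a type and less RNA per cell cannot be told apart.

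Along the chromosome the genes around the imprinted stretch were of middling level. Of 11 neighbours, 9 were detected. Peg12, next to Mkrn3, was the lowest with 0.04 and 0.16 TPM on 2 and 9 counts. Atp10a, a membrane lipid flippase gene next to Ube3a, was the one neighbour over 1.5-fold apart, with 510 counts or 4.76 TPM in replicate 1 and 328 counts or 2.74 TPM in replicate 2. From the Ube3a start to the Peg12 end, 3236 kb with 266 genes, 18 genes were detected and 230 had an effective length of 0. The 7 genes held 89.1% and 90.2% of all counts in that stretch, and 0.144% and 0.141% of the counts of all genes. After them and Gm38393 came B230209E15Rik, a long intergenic RNA between Snrpn and Ndn, at 28.3 and 27.4 TPM.

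**Figure D5:**
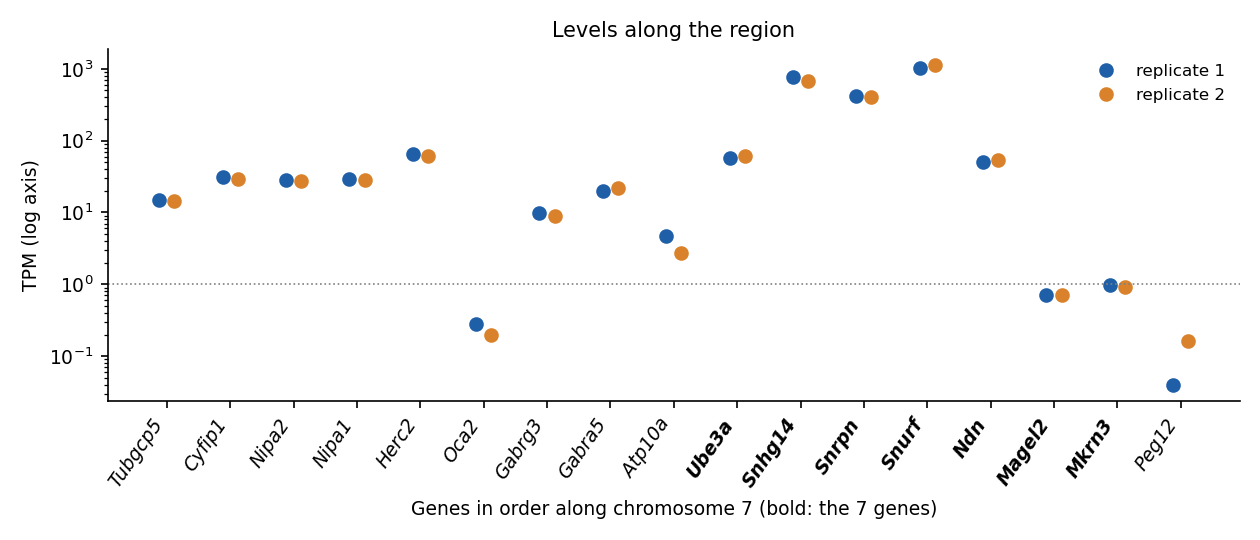
TPM (log axis) of the 7 genes (bold) and 10 of the neighbours in order along chromosome 7, replicate 1 in blue and replicate 2 in orange, with a dotted line at 1 TPM. Snhg14, Snrpn and Snurf stand above each neighbour plotted, and Magel2 and Mkrn3 lie under 1 TPM between Ndn and Peg12.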

How the data were processed

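Total RNA-seq had been done on 2 cortex samples, grouped and numbered by the labels. Each library had a gene table and 2 transcript tables. The deposited gene table and first transcript table hold expected counts and TPM, with posterior mean TPM and its bounds, under column names that RSEM writes, per the file headers. The other deposited transcript table, called the second, has estimated counts and TPM, with the column names of kallisto output. The assembly is mm10 with GENCODE M21 per the deposited file list. For program versions, aligner and strand setting: not given in the sources used here. The authors' tables hold 30503944 and 33263801 expected counts. Rows that name no gene held 2.29e-05% and 3.01e-05% of them and stayed out of library sizes.

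Computed here were levels (mean and SD of TPM), log2 ratios of the replicates with 0.5 added to each TPM (low genes are understated on this scale), exact binomial 95% intervals of counts scaled by edgeR's TMM factors, Poisson intervals, transcript shares, gene sums of the second transcript table, and matches to GENCODE and RefSeq sequences. Expected counts were rounded for intervals and for DESeq2 size factors. No test was possible with 1 group. The interval and the 31-base matching were tested on simulated data. The members and lists were chosen with earlier results of these data known. Named were all 7 members with every value and, of each of 15 lists, the count detected, the highest and lowest gene, named partners and any gene over 1.5-fold apart (1 gene is not reported here); region models overlapping the members were named after their values were seen. Joining Snhg14 models by 31-base runs was also chosen after seeing the data, and the promoter motif was not among the planned results. Scripts ran in Python 3.11.15 (scipy 1.17.1, pandas 2.3.3, numpy 2.4.6, matplotlib 3.10.9) and in R 4.3.3 (DESeq2 1.42.0, edgeR 4.0.16).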

Additional observations from a re-analysis of the deposited data

How the results depend on the processing

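No paired analysis was possible because the labels give 1 group and no contrast to pair. The count of genes at 1 TPM or more stayed within 5 to 7 of 7 under every setting tried; it was 7 at 0.5 TPM, and 6 when TPM was rescaled without spike-ins, mitochondrial genes and short genes, which leaves out Snurf itself. It was 5 without either replicate. The count over 1.5-fold apart was 0 under the second table, posterior mean TPM, other pseudocounts, TMM, DESeq2 size factors, the ERCC total and no count filter, while the share of all genes past 1.5-fold ranged from 2.02% to 8.24%. With ERCC scaling the all-gene median was -0.14, and Snhg14 then lay at about 0 (-8.4e-05), above that median. The sign of the small differences of Snrpn, Magel2 and Mkrn3 changed under 3, 4 and 2 of 7 alternatives. The log2 ratio of Snrpn to Snrpb was 2.95 in the second table and 3.94 on counts without length correction, and 3.08 to 3.19 with a replicate left out. That of Ube3a to Snhg14 was -1.31 on counts without length correction, and -3.74 to -3.46 with a replicate left out. The estimated mean effective length was 5318 and 4884 bases for Ube3a and 1032 and 1032 for Snhg14, whose TPM is summed over 15 models. The coding share of Ube3a was 96.0% in the second table and 98.0% by expected counts, and 91.8% to 94.2% with a replicate left out. Models with at least 5% of a gene's TPM numbered 18, and 16 to 18 with a replicate left out, 16 in the first table and 12 in the second (chosen after seeing the data). Levels of 7 of 7 genes moved by more than 1 SD in the second table, and of 2 of 7 with posterior mean TPM. Depth limits Magel2 and Mkrn3.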

Other observations

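Imprinted genes outside the region were listed for their levels alone. Of 30, 27 were detected in both replicates. Meg3, a maternally expressed long noncoding RNA of the Dlk1 region, was the highest at 1061 ± 95.6 TPM (SD, n = 2), and Phlda2 the lowest, with 0 and 0.07 TPM. By gene TPM Meg3 lay between Snurf and Snhg14 of the Prader-Willi and Angelman region. That place depends on the short Snurf model and on the sum over Snhg14 models. Plagl1, a zinc finger gene, was the one gene of the list over 1.5-fold apart on TPM, with 10.9 TPM in replicate 1 and 6.45 TPM in replicate 2. Its expected counts were 514 and 533, so the difference in TPM did not appear in the counts. The gene's estimated effective length was 2339 bases in replicate 1 and 3669 bases in replicate 2.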
